A study of Homo sapiens with 6 samples.

Results

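The genes described here run the O-GlcNAc cycle and build the sugar nucleotide that feeds it. They were taken by name, from a list of 8 genes: OGT, OGA (formerly MGEA5), NAGK, GFPT1, GFPT2, GNPNAT1, PGM3 and UAP1. Every probe set whose RefSeq accession maps to one of these symbols was kept. This gave 7 probe sets for 7 of the 8 genes, 1 for each, out of 927 named genes and 1259 probe sets on the array. No probe set was assigned to PGM3, which is not analysed here. The list was selected on a pathway name with the doxycycline differences of OGT and NAGK already known, so these values count as having chosen its members, and its definition includes the comparison with and without doxycycline and the covariation of OGT with OGA. Both comparisons are therefore given below as descriptions, without a p-value for any of the 7 genes.

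The cells were HCT116, from a human colorectal cancer that is microsatellite-unstable, engineered so that doxycycline switches on an added gene. In the treated group, cells had doxycycline and activin A (+DOX, 3 arrays). The comparison group had activin A without doxycycline (-DOX, 3 arrays). By the titles that gene was wild-type ACVR2; the source field instead mentions all of TGFBR2, ACVR2 and AIM2. Activin A, which binds the ACVR2 receptor, was present in every sample, and no sample received the drug without the inducible construct. The labels give neither the dose nor the hours of induction, nor whether the cells came from 1 clone or the replicates from separate cultures. P-values over these arrays thus measure only the spread between them, which may be technical.

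O-GlcNAc is a single sugar placed on serines and threonines of nuclear and cytoplasmic proteins. OGT, the only transferase that does this in those compartments, takes the sugar from UDP-GlcNAc, and OGA, a hydrolase, takes it off again. UDP-GlcNAc comes from the hexosamine pathway. GFPT1 and GFPT2 make glucosamine 6-phosphate from fructose 6-phosphate and glutamine, GNPNAT1 acetylates it, PGM3 moves the phosphate, and UAP1 joins the product to UTP. NAGK enters from the side, by phosphorylating GlcNAc recovered from broken-down glycans. In many cell types the transcripts of OGT and OGA are known to adjust to the level of O-GlcNAc.

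The promoters of OGT, OGA and NAGK are shown because these 3 genes had the largest differences, OGT and OGA in one direction and NAGK in the other. The sequences are RefSeq's for GRCh38.p14 and run from 250 bases before to 50 bases after the outermost annotated start, 5′ to 3′ on the gene's strand. Capitals mark any of 6 motifs found on either strand.
OGT, chrX:71532854-71533153 (+ strand): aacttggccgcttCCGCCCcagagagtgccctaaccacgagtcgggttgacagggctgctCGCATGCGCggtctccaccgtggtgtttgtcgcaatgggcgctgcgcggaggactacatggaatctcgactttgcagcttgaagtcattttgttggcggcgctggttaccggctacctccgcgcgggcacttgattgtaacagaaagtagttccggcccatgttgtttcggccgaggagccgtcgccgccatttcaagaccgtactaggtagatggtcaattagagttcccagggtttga
OGA, chr10:101818395-101818694 (- strand): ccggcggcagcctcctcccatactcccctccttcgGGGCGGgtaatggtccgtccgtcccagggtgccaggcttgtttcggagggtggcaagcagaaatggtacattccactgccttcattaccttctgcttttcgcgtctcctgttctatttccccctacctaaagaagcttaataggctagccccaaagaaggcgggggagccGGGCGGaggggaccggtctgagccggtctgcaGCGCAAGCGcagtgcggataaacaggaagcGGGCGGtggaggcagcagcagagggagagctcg
NAGK, chr2:71068046-71068345 (+ strand): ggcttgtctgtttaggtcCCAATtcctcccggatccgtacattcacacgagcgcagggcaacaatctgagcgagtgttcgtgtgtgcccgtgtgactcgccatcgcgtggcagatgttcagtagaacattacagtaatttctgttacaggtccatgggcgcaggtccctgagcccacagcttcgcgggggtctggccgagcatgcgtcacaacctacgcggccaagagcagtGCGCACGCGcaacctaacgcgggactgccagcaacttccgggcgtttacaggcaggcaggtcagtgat

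The motifs searched were the GC box (GGGCGG), the CCAAT box (CCAAT), the NRF1 site (GCGCANGCG), the TATA box (TATAAA), the XBP1 core (TGACGTG) and the SMAD palindrome (GTCTAGAC). No 2 matches overlapped in these promoters. All 3 windows held an NRF1 site, beginning at position -190 in OGT, -13 in OGA and -18 in NAGK. Beside it, OGT held a GC box in reverse orientation, OGA held 3 GC boxes, and NAGK a CCAAT box but no GC box. Over 27305 promoters of this length, 1 per gene, the NRF1 site occurred in 8.05%, the GC box in 44.5% and the CCAAT box in 35.7%. The NRF1 motif itself contains CG pairs, of which the window held 26 in OGT, 20 in OGA and 24 in NAGK. The median over all promoters was 13, so 8.05% is not the share among promoters with as many CG pairs. Among the other 4 genes GNPNAT1 held an NRF1 site. The match depends on the letters required: with a further C at the end of the motif, in 6.29% of promoters, it was found in OGA and NAGK and not in OGT or GNPNAT1. The SMAD palindrome, at 0.209% of all promoters, was in none of the 7. Promoters of the supply genes were richer in G and C, at 78.0% for GFPT1, 77.0% for GFPT2, 79.3% for GNPNAT1 and 70.7% for UAP1, beside 57.7% for OGT, 61.7% for OGA, 58.7% for NAGK and a median of 58.3% over all promoters. GFPT1, GFPT2 and GNPNAT1 held 4, 5 and 7 GC boxes, and UAP1 held 3 together with the only XBP1 core among the 7, a motif in 2.01% of promoters. These matches are descriptions of the letters in each window.

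Values are RMA expression values on the log2 scale, so that a difference of 1 is a 2-fold change. The array medians lay between 7.61 and 7.65 and the lower quartiles between 6.85 and 6.89. Every value of the 7 genes was at or above 9.02. The gene that the titles name was not higher with doxycycline: the ACVR2A probe set read 8.15, 8.02 and 8.08 with doxycycline against 8.25, 8.07 and 8.70 without, and whether it covers the introduced sequence is not known. Replicate 3 of the -DOX group stood apart from the other 5 arrays. It correlated with them at 0.982 to 0.991 across probe sets, whereas the other pairs reached 0.995 to 0.999. The main values are given with and without it. Of the colon epithelium markers fixed for this work MUC1, MUC2, MUC13 and LGALS4 were measured, and their means over the 6 arrays lay between 6.85 for MUC13, at the level of the lower quartile, and 8.74 for MUC1. The 8 measured markers of other cells lay between 6.0 and 7.55.

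OGT, the transferase, read 9.09, 9.21 and 9.29 on the +DOX arrays (replicates 1, 2 and 3) and 10.24, 9.57 and 10.87 on the -DOX arrays. Every +DOX array lay below every -DOX array. The mean was 9.19 ± 0.10 with doxycycline and 10.23 ± 0.65 without (SD, n = 3 each), a difference of -1.03 log2 units (SE 0.32), or a level 2.05-fold lower. The difference exceeded the SD of either group. It was the lowest of the 1259 differences, and it was still the lowest, at -0.71 (SE 0.20), without -DOX replicate 3. These are bulk cultures, in which fewer cells making a transcript and less of it per cell cannot be told apart.

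OGA, the hydrolase, differed in the same direction but its groups overlapped. It read 10.73, 10.55 and 10.80 with doxycycline, against 11.44, 10.61 and 11.89 without. Replicate 2 of the -DOX group lay inside the range of the +DOX arrays, and the other two lay above it. The means were 10.69 ± 0.13 with and 11.31 ± 0.65 without (SD, n = 3 each), a difference of -0.62 (SE 0.32), the fifth lowest of all and smaller in size than the SD of the -DOX arrays. Without -DOX replicate 3 it was -0.33 (SE 0.25) and ranked 17 from the lowest, and without -DOX replicate 2 it was -0.97.

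NAGK, the salvage kinase, was the member with the highest positive difference. It read 9.92, 10.06 and 9.99 with doxycycline, against 9.59, 9.67 and 9.02 without, and all +DOX arrays lay above all -DOX arrays. The means were 9.99 ± 0.07 and 9.43 ± 0.35 (SD, n = 3 each) with and without the drug, a difference of 0.57 (SE 0.18) that exceeded the SD of either group. The difference was 0.37 (SE 0.06) without -DOX replicate 3.

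**Figure D1:**
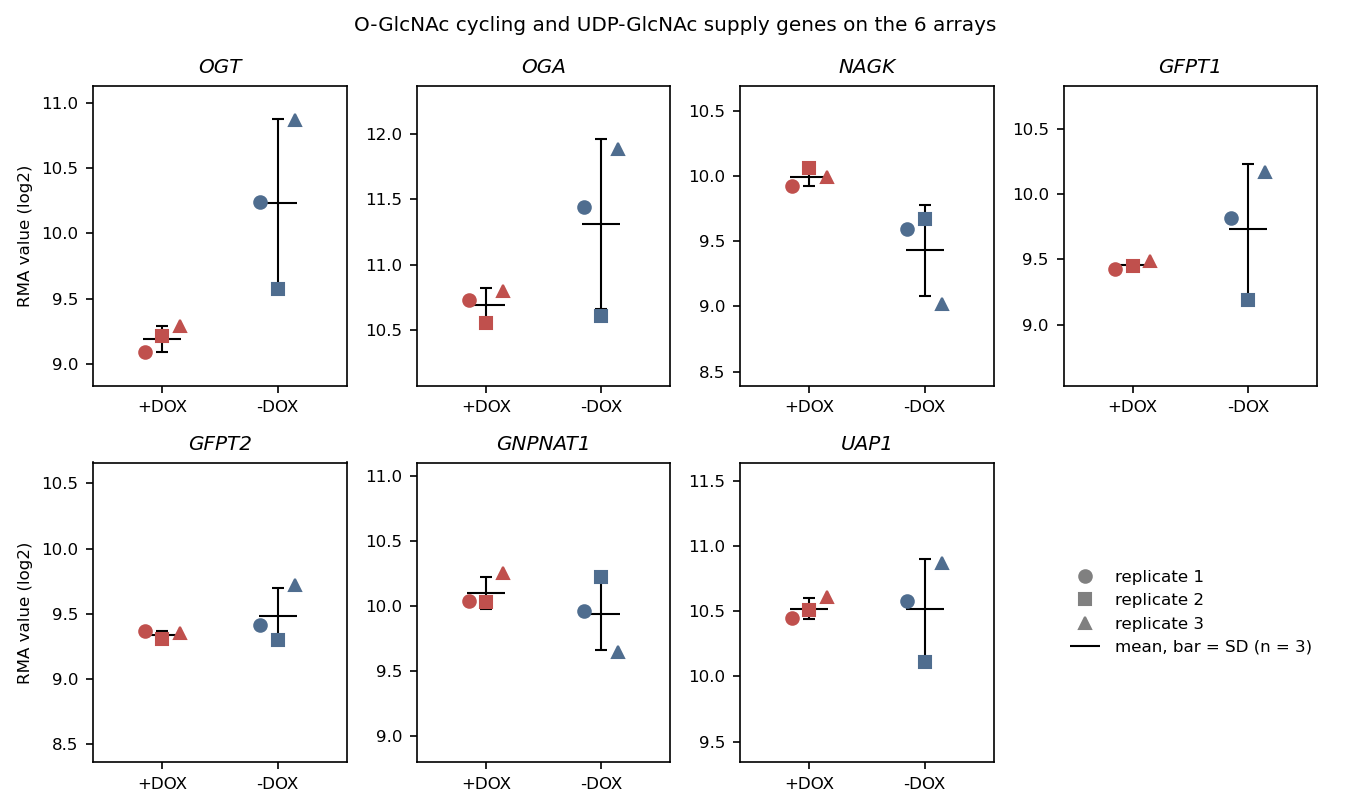
RMA values (log2) of the 7 genes on each array, +DOX left of -DOX in every panel, with points for arrays and bars for mean ± SD (n = 3). Every panel spans the same number of log2 units. With all arrays the -DOX values are spread more widely than the +DOX values for all 7 genes, which without -DOX replicate 3 no longer holds for NAGK, and the groups do not overlap for OGT and NAGK. The median SD of all probe sets was also larger without doxycycline, at 0.090 against 0.046.

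The 4 genes of the direct route to UDP-GlcNAc differed less, and their groups overlapped. GFPT1, whose step limits the pathway, read 9.43, 9.45 and 9.49 with doxycycline, against 9.82, 9.19 and 10.17 without. The difference was -0.27 (SE 0.25), with -DOX replicates 1 and 3 above all +DOX arrays and replicate 2 below them. It was -0.05 without -DOX replicate 3 and -0.54 without -DOX replicate 2.

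GFPT2, its paralog, read 9.37, 9.31 and 9.35 with and 9.41, 9.30 and 9.72 without doxycycline. Its difference of -0.13 (SE 0.11) came mostly from -DOX replicate 3, since it was -0.01 without that array. GNPNAT1, the acetyltransferase, read 10.04, 10.03 and 10.25 with and 9.96, 10.22 and 9.65 without. Its difference of 0.16 (SE 0.15) was 0.02 without -DOX replicate 3 and 0.30 without -DOX replicate 2. UAP1, the pyrophosphorylase of the last step, read 10.45, 10.51 and 10.61 with and 10.58, 10.11 and 10.87 without. Both group means were 10.52, and the sign of the difference depended on which -DOX array was left out, at 0.18 without replicate 3 and -0.20 without replicate 2.

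**Figure D2:**
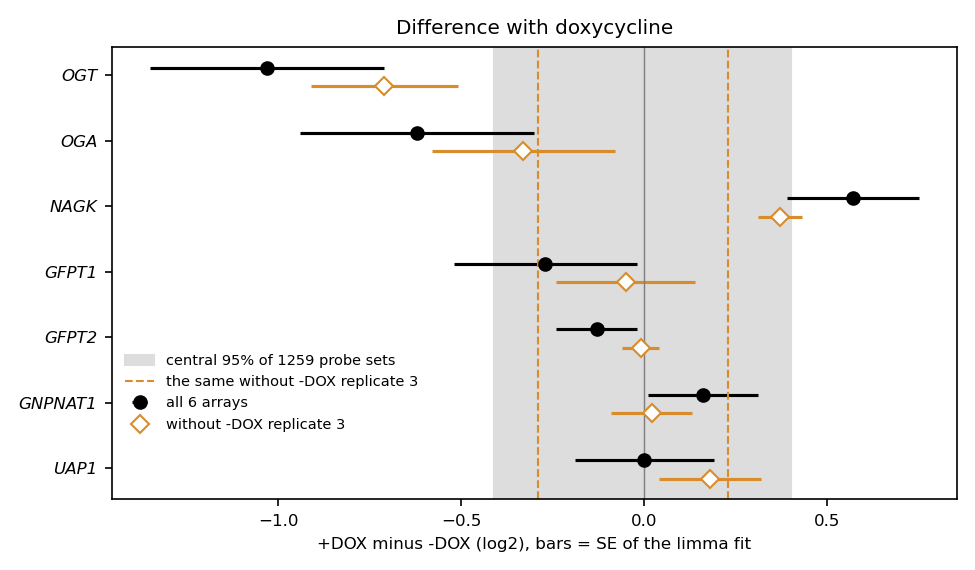
Difference with doxycycline (+DOX minus -DOX, log2) for each gene with the SE of the limma fit, over all 6 arrays (filled) and without -DOX replicate 3 (open). The grey band holds the central 95% of the differences of 1259 probe sets, from -0.41 to 0.40, and the dashed lines mark the same share without that array, from -0.29 to 0.23. OGT, OGA and NAGK lie outside the limits that belong to their setting, with all arrays and without -DOX replicate 3. The differences of OGT and NAGK were known when the list was chosen.

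In the fit across all probe sets (limma, Benjamini-Hochberg adjustment), no adjusted p was under 0.05, among the 7 genes (0) or among all 1259 probe sets (0, or 0.0%). The smallest adjusted p on the array was 0.158. At an unadjusted p under 0.05, 2 of the 7 were found, against 7.78% of all probe sets: OGT was among the lower probe sets (4.53% of all) and NAGK among the higher ones (3.26%). Non-overlapping groups were found for OGT in the lower direction (8.26% of all) and NAGK in the higher (7.55%). Differences of over 0.5 log2 units in size were found for 3 of the 7, OGT, OGA and NAGK, against 2.46% of all probe sets. Differences below 0 were found for 4 of the 7 genes and 54.6% of all probe sets. Since this contrast is part of how the list was defined, nothing is read from these counts. The median difference of the 7 genes was -0.13, and -0.01 over all probe sets. Without -DOX replicate 3 these medians were -0.01 and -0.02.

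The spread within the groups was unequal, in part through -DOX replicate 3. Among the -DOX arrays OGT and OGA each had an SD of 0.65, larger than that of 99.3% and 99.4% of probe sets. GFPT1 had 0.50, UAP1 0.38, NAGK 0.35, GNPNAT1 0.28 and GFPT2 0.22. Among the +DOX arrays the same genes had SDs of 0.03 to 0.13. There too the SD was larger than that of 87.2% of probe sets for OGT, 93.0% for OGA and 91.6% for GNPNAT1. It was larger than that of 31.9% for GFPT1 and 26.9% for GFPT2, with NAGK and UAP1 in between. For GFPT1 the SD was 0.03 with and 0.50 without doxycycline, the widest ratio of the 7. The ratio of the SD without the drug to that with it was 7.21 for GFPT2, 6.42 for OGT and 2.30 for GNPNAT1, the smallest. The median SD of all probe sets was 0.046 with and 0.090 without the drug. Over -DOX replicates 1 and 2 alone the SD was 0.47 for OGT, 0.59 for OGA, 0.45 for GFPT1 and 0.33 for UAP1. It was 0.18 for GNPNAT1, 0.08 for GFPT2 and 0.06 for NAGK. Of the 7 genes, 6 then remained more widely spread than on the +DOX arrays, and NAGK did not, its SD there being 0.07. These SDs come from 2 arrays, for which the median over all probe sets was 0.054. The share of all probe sets more widely spread without the drug was not counted, so nothing is read from the number of genes.

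Set against single -DOX arrays, the +DOX mean of OGT differed by -1.05, -0.38 and -1.68 log2 units from replicates 1, 2 and 3. For OGA the +DOX mean minus replicate 1 was -0.75, minus replicate 3 was -1.20, and minus replicate 2 was 0.09. NAGK differed by 0.41, 0.33 and 0.97, in 1 direction for all 3 arrays. GFPT1 differed by -0.37 and -0.71 from replicates 1 and 3 but by 0.27 from replicate 2, and UAP1 by -0.05, -0.34 and 0.41 from replicates 1, 3 and 2. Of the 7 genes, OGT and NAGK were thus the only ones with the same sign against each -DOX array. The share of all probe sets with that property was not counted. Non-overlapping groups, which imply it, were found in 8.26% of all probe sets in the lower direction and 7.55% in the higher. The differences of OGT and NAGK were also known when the list was chosen, so nothing is read from this.

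OGT and OGA varied together from array to array. Over the 6 arrays Pearson's r was 0.949 and Spearman's rho 0.714, and r was 0.961 when each value was taken as a deviation from its group mean. The relation rested on -DOX replicates 1 and 3, where both genes were highest. Without those arrays, the farthest from the OGT median, r over the remaining 4 was -0.292. Without replicate 3 alone it was 0.853. The 6 arrays fall into an upper pair and a lower group of 4, so a pooled coefficient says little beyond that split, and no p-value is given.

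Over the 6 arrays the within-array difference OGT minus OGA varied less than either gene, with an SD of 0.26 against 0.70 for OGT and 0.54 for OGA. Among the +DOX arrays alone it varied more, with an SD of 0.15 against 0.10 and 0.13. Only its change between arrays can be read, because the probe sets bind with different strength. It was -1.65, -1.34 and -1.51 with doxycycline, against -1.20, -1.04 and -1.02 without, and the groups did not overlap. The means were -1.50 ± 0.15 with and -1.09 ± 0.10 without (SD, n = 3 each). OGT was thus lower relative to OGA on every +DOX array, by 0.42 log2 units on average (0.38 without -DOX replicate 3). Only a shift of equal size in both genes cancels in this measure. The slope of OGT on OGA over the 6 arrays was 1.23, so array effects that move OGT more than OGA remain in it. The measure is derived from the same contrast and was not tested. Among single probe sets, groups did not overlap for 8.26% in the lower and 7.55% in the higher direction. The share for such within-array differences was not counted, so nothing is read from the lack of overlap.

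**Figure D3:**
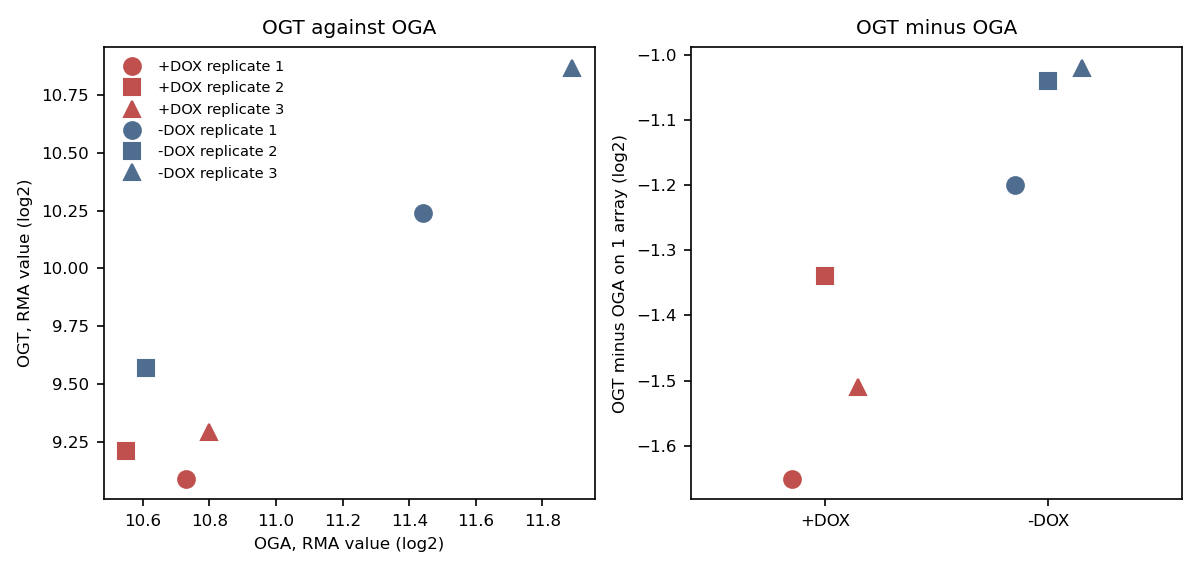
Left, OGT against OGA (RMA values, log2), a point for each array. Right, OGT minus OGA on each array (log2), +DOX left of -DOX. The -DOX replicates 1 and 3 are high for both genes on the left, and on the right the +DOX arrays (-1.65 to -1.34) lie below the -DOX arrays (-1.20 to -1.02).

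Over the 6 arrays all 21 pairs of the 7 genes followed a simple sign pattern. OGT, OGA, GFPT1, GFPT2 and UAP1 were positively correlated with each other in all 10 pairs (r from 0.577 to 0.958). NAGK and GNPNAT1 were positively correlated with each other (0.784) and negatively with the other 5 genes in all 10 pairs (-0.954 to -0.469). As deviations from group means the same pairs gave 0.895 to 0.991, 0.839, and -0.986 to -0.810. Over the 5 arrays without -DOX replicate 3 the first set gave 0.046 to 0.904, NAGK with GNPNAT1 0.151, and the 10 pairs across the sets -0.864 to 0.381, with 1 of them, NAGK with UAP1, above 0. The 2 sets were read from these values, and all pairs share the same 6 arrays.

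Covariation with OGT was common on these arrays, though few probe sets reached the values of OGA and NAGK when all arrays were used. OGA had a higher r with OGT than most, yet 2.38% of the 1258 other probe sets reached 0.949 or more, and 7.07% exceeded 0.9. At the other end NAGK stood at -0.954, a value reached by 1.03% of them. Over the 5 arrays left without -DOX replicate 3, the r of OGA with OGT (0.853) was reached by 6.92%, and that of NAGK (-0.864) by 3.58%. By deviations from group means, 6.68% of probe sets followed OGT at least as closely as OGA did. The least close of the other members had an r of size 0.858 with OGT by that measure, which 28.8% of the 1252 probe sets outside the list matched. The first principal component of those 1252 probe sets held 72.7% of their variance and scored -2.45, -2.87 and -2.87 on the +DOX arrays, against 1.39, -3.11 and 9.92 on the -DOX arrays. Its r with the 7 genes was 0.932 for OGT, 0.950 for OGA, 0.936 for GFPT1, 0.985 for GFPT2, 0.747 for UAP1, -0.931 for NAGK and -0.919 for GNPNAT1. Computed without -DOX replicate 3, the component held 46.0% of the variance, and -DOX replicate 1 scored highest on it, at 4.69. Its r was then 0.934 for OGT, 0.983 for OGA, 0.819 for GFPT1, 0.812 for GFPT2, 0.334 for UAP1, -0.741 for NAGK and -0.445 for GNPNAT1. The part of this component in the differences was not tested.

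**Figure D4:**
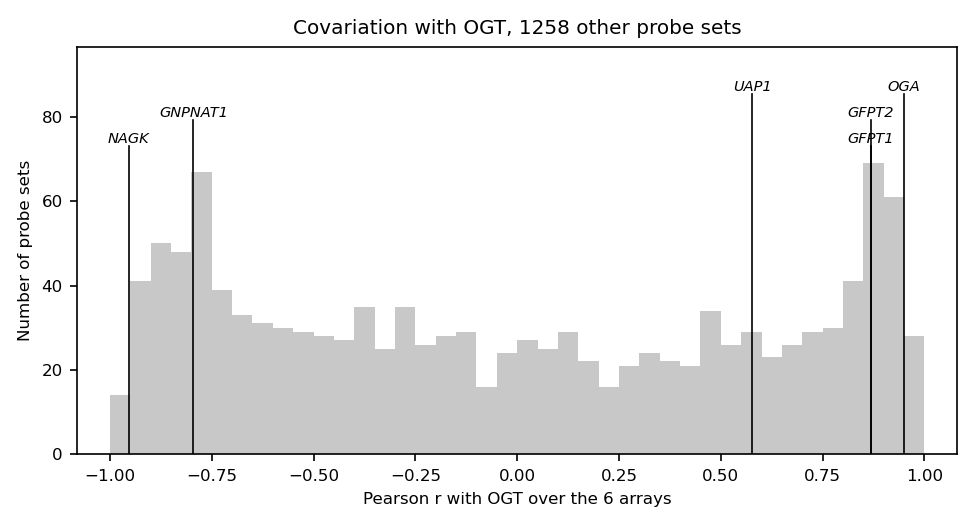
Number of probe sets by their Pearson r with OGT over the 6 arrays (1258 probe sets), with lines at the 6 other genes of the list. OGA (0.949) and NAGK (-0.954) lie near the ends of the distribution, which has 7.07% of probe sets over 0.9 and 4.37% under -0.9.

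The genes whose values were most like those of OGT over the 6 arrays were SNRNP200, a helicase of the spliceosome (r = 0.996), KLRK1, a receptor of natural killer cells (0.993), ABCF1, a translation factor (0.983), GALNT18, of the GalNAc-transferase family (0.981), and HNRNPM, a splicing regulator (0.978). Their differences with doxycycline lay between -0.43 and -0.27, and between -0.30 and -0.17 without -DOX replicate 3. The difference of OGT was the lowest of all probe sets in both settings, so nothing is read from its distance to theirs. OGA was most like TGFBR2, a TGF-beta receptor that the source field mentions and the titles do not (0.997). Next came COG4, a Golgi tethering subunit (0.996), SLC35B4, a nucleotide sugar transporter (0.995), and ALG10B and EIF3C (0.994 each). TGFBR2 read 9.37, 9.21 and 9.38 with doxycycline against 9.76, 9.21 and 10.04 without, the order of arrays seen for OGA in the -DOX group, and its difference of -0.35 was -0.16 without -DOX replicate 3. ALG10B and EIF3C have near-identical relatives that their probes may also read. NAGK was most like C1D, an exosome cofactor (0.993), ALG13, which works on the N-glycan precursor (0.993), CD58, an adhesion ligand (0.992), BPHL, a hydrolase (0.990), and C1GALT1C1, the chaperone of the core 1 O-glycan enzyme (0.988). Their differences lay between 0.24 for ALG13 and 0.64 for CD58, beside 0.57 for NAGK. Without -DOX replicate 3 they lay between 0.15 for ALG13 and 0.46 for CD58, beside 0.37. These rankings rest on 6 arrays, on which many probe sets follow the same array.

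Genes that surround UDP-GlcNAc in metabolism were followed in 5 lists, with 0 members past an adjusted p of 0.05 in each (limma). Of all probe sets 54.6% had a difference below 0. At an unadjusted p under 0.05 (limma), 4.53% of all were lower and 3.26% higher. Of the enzymes that turn UDP-GlcNAc or its relatives into other amino sugars, or recycle them, 7 of 11 were measured, with 6 higher and 1 lower in +DOX cells, a median of 0.08 and 1 higher at an unadjusted p under 0.05. NANS, the sialic acid synthase, was at 0.45 (SE 0.17) and GNE, which starts sialic acid synthesis from UDP-GlcNAc, at 0.17 (SE 0.22). Without -DOX replicate 3 these were 0.25 and -0.08, and the median was 0.01, with 5 higher and 2 lower. Among those counted as higher over all arrays, RENBP (0.02) and NPL (0.00) lay at or near 0.

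Upstream, of 13 enzymes of hexose phosphate supply 8 were measured, of which 4 had higher and 4 lower values in +DOX cells. Their median was -0.01, with 1 lower at an unadjusted p under 0.05. HK1, the hexokinase, read 11.13, 10.97 and 11.16 with doxycycline against 11.48, 11.29 and 11.38 without. Its groups did not overlap, and its difference of -0.30 (SE 0.07) was the same without -DOX replicate 3. PMM1, a phosphomannomutase, was at 0.33 (SE 0.19), and GPI, which makes the fructose 6-phosphate that GFPT1 uses, at -0.27 (SE 0.13). Without that array they were at 0.11 and -0.14.

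All 4 listed UDP-GlcNAc transporters were measured, with 3 values higher and 1 lower in +DOX cells and 0 at an unadjusted p under 0.05. Their median was 0.11, or 0.03 without -DOX replicate 3. SLC35B4 was at -0.34 (SE 0.19), SLC35D2 at 0.18 (SE 0.15) and SLC35A3 at 0.13 (SE 0.17), and all 3 had overlapping groups. SLC35D1, at 0.10 (SE 0.05), had groups that did not overlap, as had 7.55% of all probe sets in the higher direction. Without -DOX replicate 3 SLC35B4 was at -0.16, SLC35D2 at 0.01, SLC35A3 at 0.30 and SLC35D1 at 0.05.

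Of 44 listed transferases that use UDP-GlcNAc, or subunits of them, 36 were measured. Of these 14 were higher and 22 lower in +DOX cells, around a median of -0.03. At an unadjusted p under 0.05, 1 was higher and 2 were lower. The list holds B4GAT1, which is now known to add glucuronic acid. ALG14, which with ALG13 adds the second GlcNAc of the N-glycan precursor, was at 0.44 (SE 0.22), the fringe gene LFNG at 0.39 (SE 0.20), and the hyaluronan synthase HAS3 at -0.35 (SE 0.20). They were at 0.18, 0.16 and -0.17 without -DOX replicate 3. Of 9 exoglycosidases and chitobiases 6 were measured. Of these 3 were higher and 3 lower in +DOX cells, the median was -0.01, and 1 was higher at an unadjusted p under 0.05. MANBA, a beta-mannosidase, which does not itself release GlcNAc, was at -0.26 (SE 0.22), and CTBS, which cuts the chitobiose core, at 0.15 (SE 0.05). Without -DOX replicate 3, MANBA was at -0.04 and CTBS at 0.18, and 2 of these enzymes were higher and 4 lower.

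**Figure D5:**
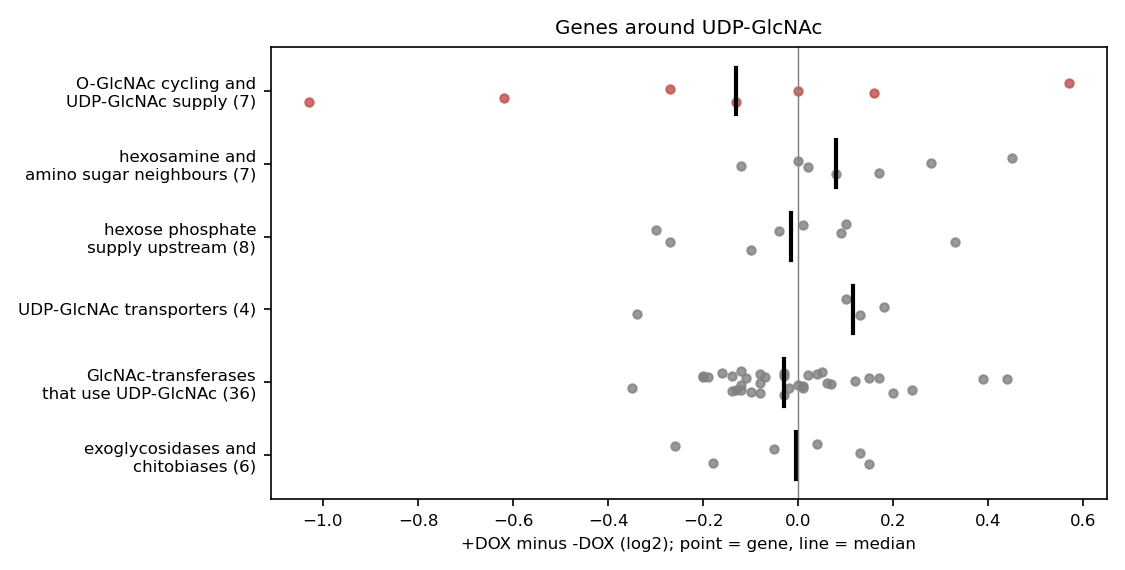
Difference with doxycycline (+DOX minus -DOX, log2) of each measured gene, by list, with the number of genes in brackets and a line at the median. OGT (-1.03), OGA (-0.62) and NAGK (0.57) lie farther from 0 than any gene of the other 5 lists, whose members run from -0.35 to 0.45. The differences of OGT and NAGK were known when their list was chosen, so nothing is read from this comparison.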

How the data were processed

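Trizol-extracted total RNA was labelled with biotin as cRNA and hybridised to Affymetrix arrays, per the labels' protocols. The deposited log2 values were made by the authors with RMA, per the submitters' processing notes. The RMA version is not stated there. Scanner files were not used, so background correction could not be repeated. Probe sets were named through their RefSeq accession and a RefSeq gene table for GRCh38.p14: of 1259, 1043 (82.8%) had 1 symbol, 190 carried no such accession and 26 an accession outside the table. Groups, 3 arrays each, follow the sample titles. limma 3.58.1 in R 4.3.3 was fitted to all probe sets (group means, default eBayes, two-sided, Benjamini-Hochberg over 1259, threshold 0.05) and tested on simulated data. A gene with several probe sets is represented by the brightest. The number of arrays limits the precision. Arrays sharing a replicate number did not deviate together (r from -0.157 to -0.043), so the numbers were not used as pairs.

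The members, lists and motifs were chosen with earlier results of these data known. Besides the members and the study genes ACVR2A and TGFBR2, the genes named were, in each list, up to 3 with the largest absolute difference, and the 5 genes most like OGT, OGA and NAGK by Pearson's r. Some genes that this rule takes are not reported here. The length of the NRF1 motif, HK1's values per array and B4GAT1 were singled out after their values were seen. Alternatives tried were centring, renewed quantile normalization, a floor, array weights, a variance trend, a replicate block, a filter on dim probe sets and leaving out each array. Spreads, correlations and the component without -DOX replicate 3 were added after seeing the data.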

Additional observations from a re-analysis of the deposited data

How the results depend on the processing

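No member passed an adjusted p of 0.05 under the main setting or any of 13 alternatives (limma). Over all probe sets the count was 0 in all of them except array weights, with 1. With each array left out in turn, the count of all probe sets past the threshold stayed at 0, the OGT difference ran from -1.36 to -0.71 and that of OGA from -0.97 to -0.33. The OGT-OGA correlation ran from 0.853 to 0.984 there, and was 0.947 with centred arrays and 0.957 with renewed quantile normalization. With the replicate block 0 probe sets passed, and it changed no other call. Array weights moved the GFPT2 difference to -0.07 and that of NAGK to 0.41, with a weight of 0.198 for -DOX replicate 3, though their estimation stopped short of its convergence tolerance. Averaging probe sets of a gene could not be run as an alternative, because each member has 1. The floor and the dim filter left the members' differences as they were, since all their values lie above both. The median differences of the 5 metabolic lists without -DOX replicate 3, an alternative chosen after seeing the data, stand beside them in the text, or were -0.02 for the transferases, -0.05 for the exoglycosidases and chitobiases, and 0.00 for hexose phosphate supply. No detection calls accompany the values, so their distance from background is unknown.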

Other observations

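Ranked by deviations from the group means, which leave out the difference between the groups, OGT was most like EGF, a growth factor (r = 0.999), SMC3, a cohesin subunit (0.996), SNRNP200 (0.995), the cytokine receptor gene LIFR (0.995) and PAPSS2, which makes the sulphate donor for sulphotransferases (0.994). Their differences with doxycycline were -0.04, -0.43, -0.27, -0.40 and -0.15, beside -1.03 for OGT. Without -DOX replicate 3 they were 0.02, -0.20, -0.17, -0.14 and 0.09, beside -0.71 for OGT. The difference of OGT was the lowest of all probe sets in both settings, so nothing is read from its distance to theirs.

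By the same measure OGA was most like TGFBR2 and EIF3C (0.999 each), the heparan 2-O-sulphotransferase gene HS2ST1 (0.998), SLC35A5, a nucleotide sugar transporter, and PGM1, a phosphoglucomutase (0.997 each). Their differences lay between -0.35 and -0.04, against -0.62 for OGA, and between -0.16 and 0.08 without -DOX replicate 3, against -0.33. NAGK was most like CX3CL1, SLC35E1, RPL31, ALG5 and SLC35B1, with r of 0.992 or more. CX3CL1, a chemokine, was at -0.07, SLC35E1 at 0.44, RPL31 at 0.17, ALG5 at 0.32 and SLC35B1 at 0.31, against 0.57 for NAGK. Without -DOX replicate 3 they were at -0.09, 0.15, 0.01, 0.12 and 0.14, against 0.37.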
